A study of Mus musculus with 20 samples.

Results

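Hedgehog ligands, receptors and Gli factors were examined in whole mouse kidneys as 9 genes, Ihh, Dhh, Ptch1, Hhip, Boc, Smo, Gli1, Gli2 and Gli3. They are 9 of the 55471 gene identifiers in the deposited table, taken by name. They were chosen by their measured levels in i-TERTci kidneys, where Gli2 was already known to be high, so that comparison is described here without a test. Each of the 20 libraries came from the kidney of 1 female mouse of 2 months, so replicates are separate animals. The 3 i-TERTci mice carried actin-rtTA+ and tetOp-TERTci+, on a mixed background, and their 4 controls carried actin-rtTA+ alone. Catalytically inactive TERT (TERTci) was switched on by doxycycline in any tissue that made rtTA from a widely active promoter, so the model is not restricted to a kidney cell type. Both of these groups, the controls included, drank doxycycline for 15 days and were collected on day 8 of reversal (R8), after its withdrawal. In the other experiment, on a Balb/c background, 3 TERT KO/KO and 3 TERT WT/WT mice received 12 mg/kg of Adriamycin (ADR, the drug doxorubicin, toxic to the podocytes of the glomerulus), and 3 TERT KO/KO and 4 TERT WT/WT mice received saline. These kidneys were collected on day 18 after the intravenous injection.

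A library, replicate 2 of TERT KO/KO ADR, was unlike the other 19. Alb, the hepatocyte gene for serum albumin, took 26.1% of its counts, and it held 2 counts of Gli2, 3 of Gli1 and 40 of Ihh. It was left out of levels and main fits, so TERT KO/KO ADR has n = 2, and calls with it included are given beside the main ones. Totals were 39323498 to 48399322 counts per library. Tert, the gene inactivated in the knockout, had 105 to 210 counts in the TERT KO/KO ADR libraries kept and 51 to 132 after saline, against 164 to 379 in TERT WT/WT ADR and 122 to 187 in TERT WT/WT saline kidneys. Counts over the whole gene do not separate a truncated from an intact transcript. Tert had 230 to 1086 counts in i-TERTci kidneys, against 87 to 164 in actin-rtTA+ kidneys. Podocyte, proximal tubule and collecting duct markers were all detected in every group, as the label whole kidney implies.

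Hedgehog signalling starts when a secreted ligand (Sonic, Indian or Desert hedgehog) binds the receptor Ptch1, which otherwise holds the membrane protein Smo inactive. Active Smo acts at the primary cilium and changes how the zinc finger proteins Gli2 and Gli3 are processed, with Gli2 the main activator and Gli3 largely a repressor. Gli1 is an activator whose own gene is switched on by the pathway, and Ptch1 and Hhip, a decoy receptor that captures ligand, are also known targets. In kidney, Ihh is known from tubules, and Gli1 marks perivascular mesenchymal cells that can give rise to myofibroblasts after injury. On mm10 (GENCODE M21) the ligand genes lie at chr1:74945315-74951672 (Ihh) and chr15:98891152-98898540 (Dhh). Those of the receptors and Smo lie at chr13:63508328-63573598 (Ptch1), chr8:79965851-80058006 (Hhip), chr16:44485049-44558897 (Boc) and chr6:29735503-29761365 (Smo). The Gli genes lie at chr10:127329882-127341974 (Gli1), chr1:118834132-119053619 (Gli2) and chr13:15463235-15730026 (Gli3), and counts are over whole genes.

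Gli proteins bind DNA at a nonamer, GACCACCCA, whose core is CCACCC. RefSeq promoters on GRCm38.p6, which run from 250 bases before to 50 bases after the annotated start, were at hand for 7 of the 9 genes, with Gli1 and Boc not matched. The nonamer was in 0 of the 7 on either strand, and it was in 0.253% of all 32851 promoters. The core, searched on both strands and contained within the nonamer, was in 6 of the 7 (all but Ptch1), against 31.5% of all promoters. The 7 promoters had GC contents of 61.7% to 76.3%, against a median of 52.7% over all promoters. The share of 31.5% was not matched for GC, so no enrichment of the core is read from it. The promoters of Gli2 and Gli3 are shown because these genes had the largest fitted differences in i-TERTci kidneys. They lie at chr1:119053570-119053869 on the minus strand and chr13:15463473-15463772 on the plus strand. Capitals mark CCACCC or, for the other strand, GGGTGG.
Gli2: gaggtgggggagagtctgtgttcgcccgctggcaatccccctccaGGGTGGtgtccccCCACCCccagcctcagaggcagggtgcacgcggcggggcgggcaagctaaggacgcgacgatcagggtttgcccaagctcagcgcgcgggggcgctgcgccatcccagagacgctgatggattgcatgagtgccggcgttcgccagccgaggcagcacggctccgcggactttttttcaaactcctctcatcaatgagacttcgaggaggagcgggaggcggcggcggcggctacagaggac
Gli3: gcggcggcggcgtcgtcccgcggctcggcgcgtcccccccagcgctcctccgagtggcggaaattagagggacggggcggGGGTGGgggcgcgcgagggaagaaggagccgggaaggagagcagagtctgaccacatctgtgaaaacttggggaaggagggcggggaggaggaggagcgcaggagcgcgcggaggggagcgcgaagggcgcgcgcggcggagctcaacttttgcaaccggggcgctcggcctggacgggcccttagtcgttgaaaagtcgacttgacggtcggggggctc
The Gli2 window held 1 core on each strand and the Gli3 window held 1 on the reverse strand. Their GC contents were 67.3% and 71.0%, against a median of 52.7% over all promoters, and a match of letters is not evidence of binding.

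Levels are CPM, which are counts scaled to a common library size with TMM factors over 19 libraries. Levels of different genes are compared per kilobase of exon only. On that scale Ihh and Smo, the transducer of the signal, were highest, with Ihh between 10.5 and 20.1 and Smo between 11.5 and 16.3 CPM per kb over the 6 group means. Boc, a co-receptor that helps ligand bind, had group means of 3.20 to 4.93 CPM per kb, and Ptch1 of 1.47 to 2.38 CPM per kb. Gli1 had 0.365 to 0.784 CPM per kb and Dhh 0.272 to 0.314 CPM per kb. Hhip was low in all groups, at 0.0254 to 0.105 CPM per kb, and Gli3 had 0.0633 to 0.164 CPM per kb. Gli2 had 0.807 CPM per kb in i-TERTci kidneys and 0.0753 to 0.141 CPM per kb in the other 5 groups, so its rank among the 9 genes differed between groups.

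**Figure D1:**
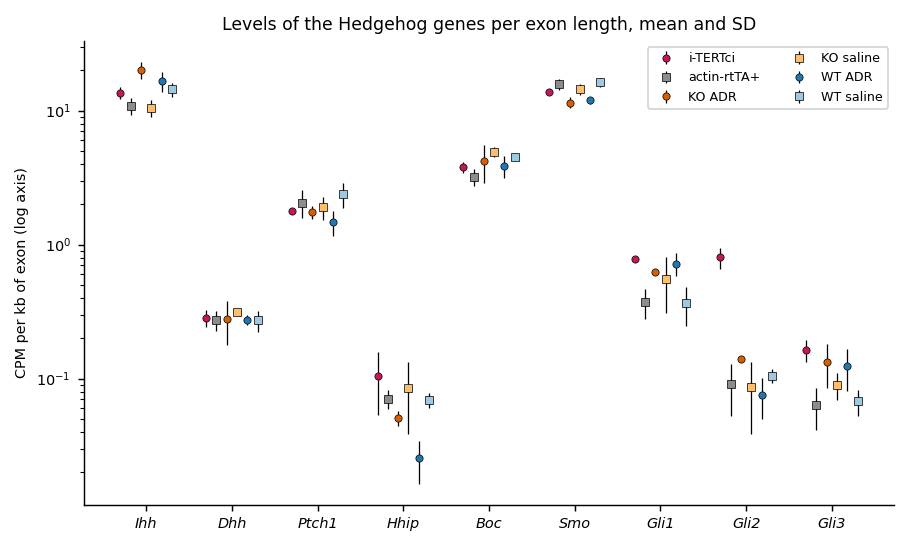
Level of each gene per kilobase of exon (CPM per kb, log axis) in the 6 groups, as the mean (point) with its SD over libraries (bar). Ihh and Smo lie highest, at 10.5 to 20.1 CPM per kb, and Gli2 lies at 0.807 CPM per kb in i-TERTci kidneys but at 0.141 or below in the other groups.

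Of the 9 genes, Gli2 had the largest difference between i-TERTci and actin-rtTA+ kidneys. Its counts were 395, 204 and 249 in the 3 i-TERTci libraries, against 17, 26, 41 and 23 in the 4 actin-rtTA+ libraries. In CPM these were 6.62, 5.34 and 4.67, against 0.369, 0.671, 0.961 and 0.486. The lowest i-TERTci library was thus above the highest actin-rtTA+ library, and also above each of the 12 libraries of the ADR experiment, where Gli2 did not exceed 0.988 CPM. Mean Gli2 was 5.54 ± 0.99 CPM in i-TERTci kidneys (SD, n = 3) and 0.622 ± 0.258 CPM in actin-rtTA+ kidneys (SD, n = 4), a ratio of 8.91. The fitted log2 fold change was 3.17 (SE 0.34), with no test, since this contrast chose the genes. Among the 17745 genes fitted, Gli2 ranked 2 when genes were ordered by the log2 gap between the lowest i-TERTci and the highest actin-rtTA+ library (gap 2.17, with 0.1 CPM added), after Mmp7, a matrix metalloproteinase (gap 2.51). Gabrp, the next gene, had a gap of 1.76. The rank describes the same contrast that chose the genes, so it is no separate evidence that Gli2 stands out.

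The other Gli genes were also higher. Gli1 had 3.79, 3.95 and 4.01 CPM in i-TERTci kidneys, against 1.22, 1.86, 2.32 and 2.03 CPM in actin-rtTA+ kidneys. The 3 i-TERTci values lay within a narrow band above all 4 controls, and the fitted log2 fold change was 1.09 (SE 0.25). Gli3 had 1.84, 1.26 and 1.61 CPM in i-TERTci kidneys, against 0.869, 0.361, 0.563 and 0.634 CPM in actin-rtTA+ kidneys, again without overlap, with a log2 fold change of 1.38 (SE 0.34). Among the ligands, Ihh had 45.9, 40.1 and 38.2 CPM in i-TERTci kidneys, against 37.1, 36.0, 26.9 and 32.0 CPM in actin-rtTA+ kidneys (log2 fold change 0.34, SE 0.14), and its groups were separated by a small margin. Desert hedgehog (Dhh), known from Schwann cells and the testis, had 1.05 to 1.36 CPM in i-TERTci kidneys, inside the 1.03 to 1.44 CPM of actin-rtTA+ kidneys.

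The receptors and Smo did not separate these groups. Ptch1 had 24.1 to 26.6 CPM in i-TERTci kidneys, inside the 21.6 to 38.2 CPM of actin-rtTA+ kidneys (log2 fold change -0.20, SE 0.18). Smo had 75.0 to 81.4 CPM in i-TERTci kidneys, against 79.6 to 95.3 CPM (log2 fold change -0.18, SE 0.11), and Boc had 15.1 to 18.3 CPM, against 13.1 to 17.2 CPM (log2 fold change 0.26, SE 0.15). Hhip had 0.536, 1.46 and 0.863 CPM in i-TERTci kidneys, against 0.490 to 0.718 CPM in actin-rtTA+ kidneys. Its log2 fold change of 0.57 (SE 0.38) was 0.13 without i-TERTci replicate 2. In all, 4 of the 9 genes (Ihh, Gli1, Gli2 and Gli3) were higher in every i-TERTci library than in every actin-rtTA+ library, as were 8.76% of the genes fitted, and nothing is read from this count because this contrast chose the genes. By edgeR's quasi-likelihood test with Benjamini-Hochberg adjustment, 0.00564% of the genes fitted were called at an adjusted p under 0.05, which was the single gene Hmox1 (heme oxygenase 1), named because it was the only one. At an unadjusted p under 0.05 there were 3972 genes, and DESeq2 called 1934.

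**Figure D2:**
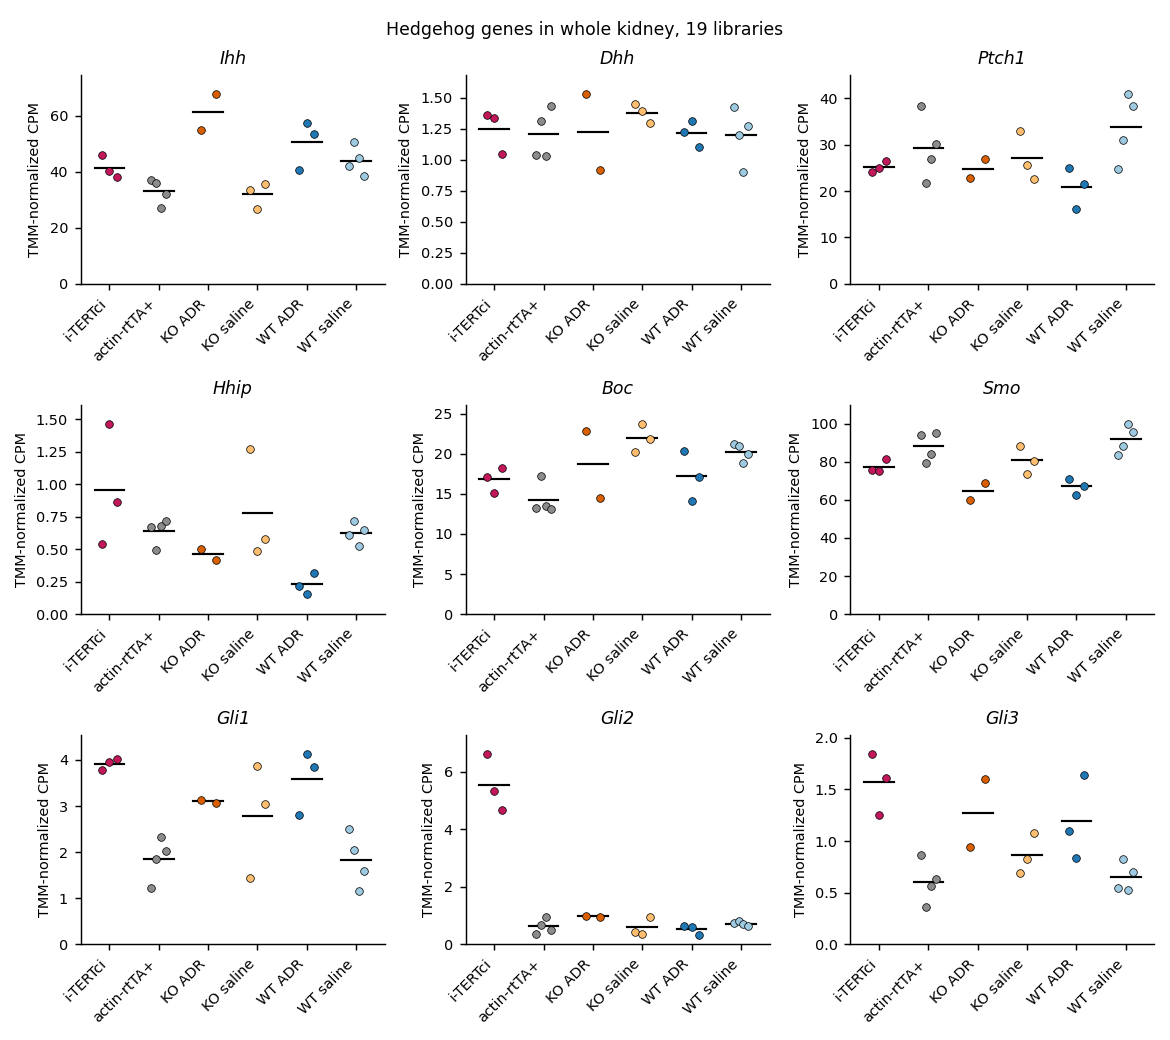
TMM-normalized CPM of each gene (y axis, from 0) in the 19 libraries of the 6 groups, where a point is a mouse and a line is the group mean. Gli2 lies between 4.67 and 6.62 CPM in the 3 i-TERTci libraries and at 0.988 CPM or below in the other 16.

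The i-TERTci mice were unlike one another in cell type markers. The 13 fibroblast and pericyte markers summed to 3674, 1061 and 2657 CPM in i-TERTci kidneys, against 571 to 800.0 CPM in actin-rtTA+ kidneys, with 0 of 13 markers undetected. The 6 macrophage markers summed to 1296, 195 and 644 CPM in i-TERTci kidneys, against 129 to 201 CPM, and the 7 proximal tubule markers to 2307, 11879 and 7163 CPM, against 12143 to 13979 CPM. In i-TERTci replicate 2, the macrophage sum was within the range of the controls and the fibroblast and pericyte sum was below those of replicates 1 and 3 but above every control. Its podocyte markers summed to 1208 CPM, above the 567 to 755 CPM of actin-rtTA+ kidneys, while those of replicates 1 and 3 summed to 234 and 548 CPM, below it. Gli2 in that kidney was 8.58 times the actin-rtTA+ mean, against 10.6 and 7.51 times in replicates 1 and 3, and without replicate 2 its log2 fold change was 3.20. The part that the number of fibroblasts or macrophages played in the differences was not tested. In whole kidney RNA, more cells of a type and more RNA per cell cannot be told apart.

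**Figure D3:**
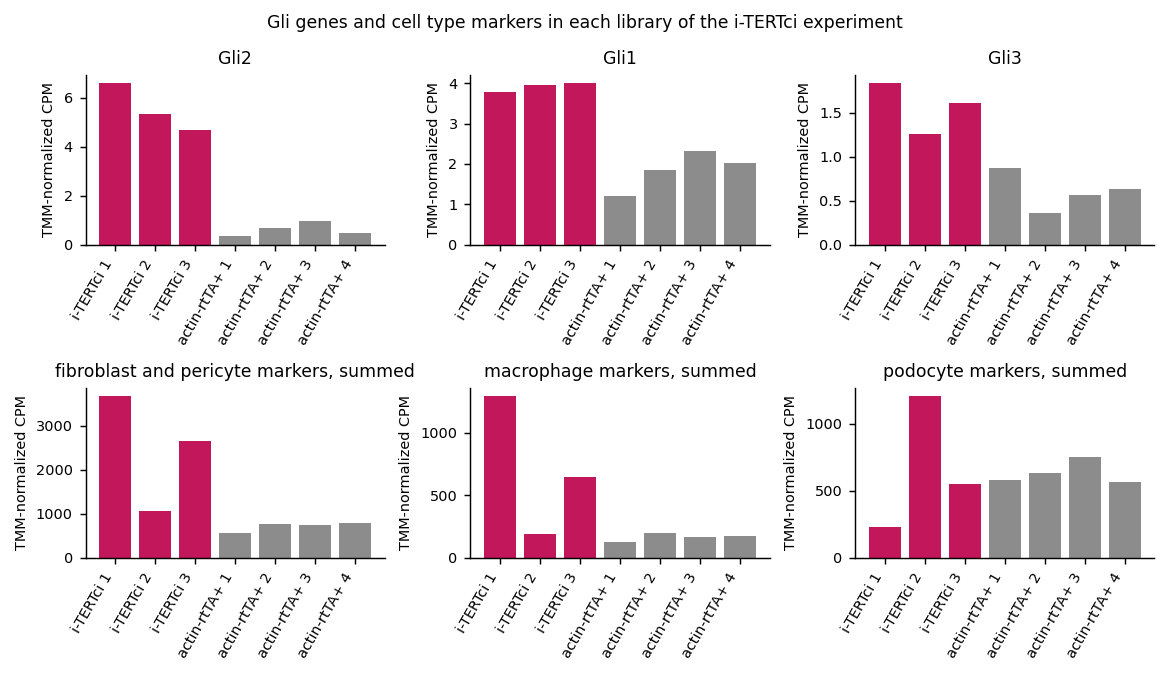
TMM-normalized CPM of Gli2, Gli1 and Gli3 and the summed CPM of fibroblast and pericyte, macrophage and podocyte markers in each i-TERTci and actin-rtTA+ library (bars from 0, 1 bar a mouse). Replicate 2 of i-TERTci has a fibroblast and pericyte sum of 1061 CPM, against 3674 and 2657 CPM in replicates 1 and 3, while its Gli2 is 5.34 CPM.

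The genes beside Gli2 on chromosome 1 had smaller differences than Gli2 in each i-TERTci kidney. Of its 4 nearest protein-coding genes on either side, Tfcp2l1, a transcription factor of the collecting duct, is 149.0 kb away and Inhbb, an activin subunit, 361.8 kb away. Their log2 fold changes were 0.13 (SE 0.19) and 0.46 (SE 0.23), and those of the 8 genes ran from -0.19 (Epb41l5) to 0.46 (Ralb). None of the 8 was called by edgeR at an adjusted p under 0.05 (the lowest was 0.209, for Ralb), but only 0.00564% of the 17745 genes fitted were. The lack of a call thus does not set the neighbours apart from other genes. Ralb alone of the 8 had an unadjusted p under 0.05, as did 3972 of all genes fitted. In replicate 2 the 8 neighbours were 0.925 to 1.1 times their actin-rtTA+ means. They were 0.771 to 1.73 times in replicate 1 and 0.897 to 1.5 times in replicate 3.

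**Figure D4:**
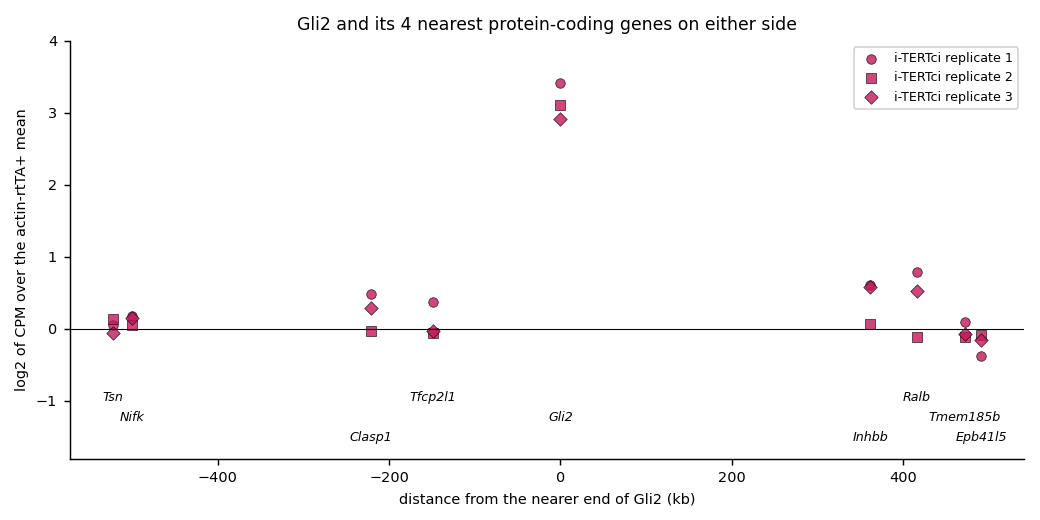
Level in each i-TERTci kidney relative to the actin-rtTA+ mean (log2 ratio of CPM, y axis) for Gli2 and its 8 nearest protein-coding neighbours, by distance from Gli2 in kb (x axis). The Gli2 ratios are 10.6, 8.58 and 7.51, and those of the neighbours lie between 0.771 and 1.73.

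Some counts could be shared with overlapping genes, and the strand setting of the counting is not given in the sources used here. Exons of Gli1 share 62 bases with Arhgap9, a gene of blood cells on the opposite strand. Arhgap9 had 876, 104 and 520 counts in i-TERTci kidneys, against 97, 75, 108 and 97 in actin-rtTA+ kidneys. In CPM, Arhgap9 had 14.7, 2.72 and 9.75 in i-TERTci kidneys, against 2.11, 1.93, 2.53 and 2.05 in actin-rtTA+ kidneys, so that it was higher in every i-TERTci library, as Gli1 was. The part of shared reads in the Gli1 difference was not tested. Dhh shares 546 exon bases with Rhebl1 on the same strand and 1107 with the antisense Gm49442, so its counts are uncertain. On the opposite strand, Gm47200 shares 265 exon bases with Gli1 and had 0 counts in all libraries kept, and Gm6556 shares 188 with Gli3 and had 0 to 8 counts. Gli2 shares no exon base with another gene.

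After ADR, TERT WT/WT kidneys had Gli1 higher and Smo, Ptch1 and Hhip lower, while Gli2 was not called. Of the 9 genes, 1 rose, against 15.2% of the 19023 genes tested, and 3 fell, against 12% of the genes tested (edgeR's quasi-likelihood test, adjusted p under 0.05). Their median log2 fold change was -0.24, against 0.01 over all genes tested. Gli1 had 2.80, 4.13 and 3.84 CPM in ADR kidneys, against 2.51, 2.04, 1.16 and 1.58 CPM in saline kidneys. Each ADR value was above each saline value, as was so for 17.7% of the genes tested. Gli1 rose by 0.97 on the log2 scale (SE 0.32, adjusted p = 0.0408 by edgeR). Its overlapping neighbour Arhgap9 also rose (log2 fold change 1.59, SE 0.36, adjusted p = 0.00934 by edgeR), and the part of shared reads in the Gli1 result was not tested. Gli3 had 1.1, 0.835 and 1.64 CPM in ADR kidneys, against 0.542, 0.822, 0.527 and 0.700 CPM in saline kidneys. Its lowest ADR library was barely above its highest saline library. The log2 fold change of 0.88 (SE 0.31) was not called in the main edgeR fit (adjusted p = 0.0535) but was by DESeq2 (adjusted p = 0.0387). It was also called by a newer edgeR quasi-likelihood method (0.90, adjusted p = 0.0474) and by edgeR without ADR replicate 1 (0.95, adjusted p = 0.0442). Gli2 had 0.646, 0.587 and 0.319 CPM in ADR kidneys, against 0.745, 0.822, 0.702 and 0.623 CPM in saline kidneys (log2 fold change -0.50, SE 0.36, adjusted p = 0.310 by edgeR), and the groups overlapped.

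Smo was the most precisely measured of the genes that fell. It had 71.2, 62.6 and 67.6 CPM in TERT WT/WT ADR kidneys, against 83.7, 88.1, 100 and 95.7 CPM in saline kidneys, with no overlap (log2 fold change -0.46, SE 0.11, adjusted p = 0.0103 by edgeR). Of the genes tested, 15.8% were lower in every ADR kidney than in every saline kidney. Ptch1 had 24.9, 16 and 21.5 CPM in ADR kidneys, against 24.8, 30.9, 41.0 and 38.4 CPM in saline kidneys. The groups met at ADR replicate 1 and saline replicate 1, and the log2 fold change was -0.70 (SE 0.20, adjusted p = 0.0225 by edgeR). Hhip was down to 9, 7 and 19 counts in ADR kidneys, against 27, 34, 24 and 25 counts in saline kidneys, and fell by 1.41 on the log2 scale (SE 0.40, adjusted p = 0.0227 by edgeR). Ihh (log2 fold change 0.20, SE 0.15), Boc (-0.24, SE 0.16) and Dhh (0.01, SE 0.24) were not called, with adjusted p of 0.342, 0.258 and 0.977 by edgeR.

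Calls in TERT WT/WT kidneys depended on single libraries. Without ADR replicate 1, the 4 calls were kept and Gli3 was added, so that 5 of the 9 genes were called by edgeR. Smo lost its call without ADR replicate 2 (log2 fold change -0.40, adjusted p = 0.0593 by edgeR) and kept it in the other 6 of 7 fits that left out 1 library. Gli1 lost its call without ADR replicate 2 or 3 or without saline replicate 2, 3 or 4, with log2 fold changes of 0.81 to 1.16 over the 7 fits and adjusted p of up to 0.153 by edgeR. Ptch1 lost its call without ADR replicate 2 or 3 or saline replicate 3 or 4 (-0.84 to -0.54 over the 7 fits, adjusted p up to 0.120 by edgeR). Hhip lost its call without ADR replicate 2 or saline replicate 2 or 4 (-1.74 to -1.20 over the 7 fits, adjusted p up to 0.107 by edgeR). When all 13 libraries were fitted together, with the library rich in Alb included and the SE of Smo at 0.27 in place of 0.11, 0 of the 9 genes were called, against 4.82% of the 18534 genes tested, and 3 of the 9 had an unadjusted p under 0.05 (Ptch1, Hhip and Gli3). Several cell type marker sums moved with the treatment. The fibroblast and pericyte sum was 944 to 1766 CPM in ADR kidneys, against 555 to 691 CPM in saline kidneys, with 8 of its 13 markers called higher and 1 lower by edgeR. The proximal tubule sum was 2039 to 8520.4 CPM, against 9764 to 11787 CPM, and the macrophage sum was 291 to 577 CPM, against 152 to 203 CPM. The collecting duct sum overlapped, at 907 to 1598 CPM, against 1085 to 1472 CPM. None of the collecting duct, Schwann cell or hepatocyte markers was called by edgeR. Podocyte markers summed to 150.2 to 519 CPM in ADR kidneys, against 600.4 to 680.1 CPM in saline kidneys, and endothelial markers to 256 to 434 CPM, against 484 to 498 CPM. ADR replicate 1 was the ADR kidney nearest the saline range in the fibroblast and pericyte, proximal tubule, macrophage, podocyte and endothelial sums. The part of the marker sums in these results was not tested.

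In TERT KO/KO kidneys after ADR (n = 2), Ihh was the only gene of the 9 that was called. It had 54.8 and 67.8 CPM in the 2 ADR kidneys, against 33.4, 26.8 and 35.7 CPM in the 3 saline kidneys. Both ADR values were above all saline values, as was so for 21.2% of the genes tested. Ihh rose by 0.95 on the log2 scale (SE 0.18, adjusted p = 0.0139 by edgeR). This was 1 of the 9 genes, against 3.83% of genes tested that rose, and 0 of the 9 fell, against 1.43% of genes tested (edgeR; 2 of the 9, Ihh and Smo, had an unadjusted p under 0.05, and DESeq2 also called 1). The median over the 9 was -0.12, against 0.01 over all genes tested. Smo had 60.2 and 69.1 CPM in ADR kidneys, against 88.4, 73.8 and 80.7 CPM in saline kidneys, without overlap, and its log2 fold change of -0.32 (SE 0.13) was not called (adjusted p = 0.153 by edgeR). Of the genes tested, 21.1% were lower in both ADR kidneys than in every saline kidney. Gli1 had 3.13 and 3.07 CPM in ADR kidneys, against 1.43, 3.87 and 3.04 CPM in saline kidneys, and the saline kidneys spread on both sides of the ADR kidneys (log2 fold change 0.17, SE 0.38). Gli2 had 0.988 and 0.952 CPM in ADR kidneys, against 0.438, 0.370 and 0.966 CPM in saline kidneys (log2 fold change 0.72, SE 0.41, adjusted p = 0.301 by edgeR). For the remaining genes the log2 fold changes were 0.57 for Gli3, -0.76 for Hhip, -0.23 for Boc, -0.17 for Dhh and -0.12 for Ptch1, none of them called.

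The Ihh call in TERT KO/KO kidneys was lost without ADR replicate 3, which leaves 1 ADR kidney assumed to vary like the other groups (log2 fold change 0.78, adjusted p = 0.102 by edgeR), and without saline replicate 2 (0.83, adjusted p = 0.0610 by edgeR). With the library rich in Alb included, Ihh had a log2 fold change of 0.39 (SE 0.74, adjusted p = 0.768 by edgeR), and 0 of the 9 genes were called, against 1.59% of genes tested. Smo alone then had an unadjusted p under 0.05, and the uncalled values of Ptch1, Hhip and Gli1 changed sign, to 0.26, 0.36 and -0.35. The fibroblast and pericyte sum was 1254 to 1831 CPM in these ADR kidneys, against 609.9 to 685 CPM in saline kidneys, and the proximal tubule sum was 3852 to 5657 CPM, against 9954 to 11003 CPM. The macrophage sum was 166 to 481 CPM in ADR kidneys, against 157 to 193 CPM in saline kidneys. Podocyte markers summed to 295 to 463 CPM in ADR kidneys, against 558 to 622 CPM in saline kidneys, and endothelial markers to 291 to 443 CPM, against 484 to 540 CPM. Their part in the Ihh result was not tested.

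**Figure D5:**
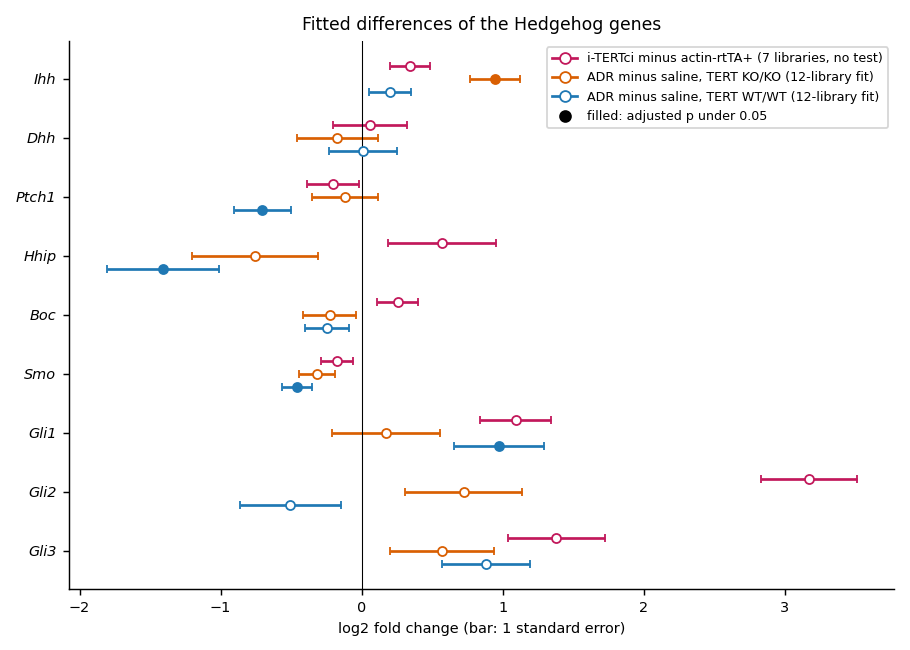
Fitted log2 fold change (x axis) with 1 standard error for each gene in i-TERTci over actin-rtTA+ kidneys and in ADR over saline kidneys of each TERT genotype, where filled points had an adjusted p under 0.05 and the i-TERTci comparison was not tested. Gli2 lies at 3.17 in i-TERTci kidneys, 0.72 after ADR in TERT KO/KO kidneys and -0.50 after ADR in TERT WT/WT kidneys.

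The ADR effects were not shown to differ between genotypes for any of the 9 genes. In the test of the difference itself, TERT KO/KO minus TERT WT/WT, 0 of the 9 genes and 0% of the genes tested were called by edgeR, with 2288 genes at an unadjusted p under 0.05, and DESeq2 called 138 genes but 0 of the 9. The nearest was Ihh, whose ADR effect was 0.75 log2 units larger in TERT KO/KO kidneys (SE 0.23, unadjusted p = 0.00744, adjusted p = 0.322 by edgeR). For Gli2 the difference was 1.23 log2 units (SE 0.55, adjusted p = 0.404 by edgeR), and these were the 2 genes of the 9 with an unadjusted p under 0.05. Those of the other 7 genes ran from -0.80 for Gli1 to 0.65 for Hhip, and with the library rich in Alb included those of Smo and Boc changed sign, to -0.21 and -0.53. Without TERT WT/WT ADR replicate 1, edgeR called 325 of the 18974 genes tested for the difference, but 0 of the 9. The comparisons in this experiment share their groups, so their values are not independent of each other.

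Between saline kidneys of the TERT genotypes, 0 of the 9 genes were called, against 0.00526% of genes tested, which was 1 gene (edgeR; DESeq2 also called 0 of the 9). Ihh alone had an unadjusted p under 0.05, at 33.4, 26.8 and 35.7 CPM in TERT KO/KO saline kidneys, against 41.9, 50.5, 44.8 and 38.5 CPM in TERT WT/WT saline kidneys. Every TERT KO/KO value was below every TERT WT/WT value, as was so for 6.17% of the genes tested (log2 fold change -0.46, SE 0.15, adjusted p = 0.564 by edgeR). The other 8 genes had log2 fold changes from -0.32 (Ptch1) to 0.59 (Gli1). Between ADR kidneys, 0 of the 9 were called, against 0.0736% of genes tested, and DESeq2 again called 0 of the 9. Gli2, with an unadjusted p under 0.05, had a log2 fold change of 0.93 (SE 0.41, adjusted p = 0.627 by edgeR), with both TERT KO/KO ADR libraries above all 3 TERT WT/WT ADR libraries. The same order of libraries held for 8.57% of the genes tested. Hhip had 0.504 and 0.419 CPM in TERT KO/KO ADR kidneys, against 0.215, 0.158 and 0.319 CPM in TERT WT/WT ADR kidneys (log2 fold change 0.97, SE 0.46, adjusted p = 0.657 by edgeR), and the other 7 genes ran from -0.21 (Gli1) to 0.28 (Ihh). With the library rich in Alb included, 4 uncalled values changed sign, to -0.28 for Ihh, -0.32 for Dhh, -0.41 for Boc and -0.18 for Gli3. Without TERT WT/WT ADR replicate 1, edgeR called 782 of the 18974 genes tested between ADR kidneys, but 0 of the 9.

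Other genes of the pathway gave a mixed picture after ADR. Of 11 other ligand, release and receptor genes, 3 rose and 1 fell in TERT WT/WT kidneys, with a median log2 fold change of 0.08. Those that rose included Gpc3 (1.88, SE 0.36), a cell surface glypican that competes for ligand, and Scube1 (0.61, SE 0.20), while the co-receptor gene Gas1 fell by 0.58 on the log2 scale (SE 0.15). Of 24 genes that relay the signal from Smo to Gli, 2 rose and 7 fell, with a median of -0.08. The kinesin gene Kif7 (0.82, SE 0.23) and the ciliary receptor gene Gpr161 (0.95, SE 0.25) rose. Sufu, which holds Gli proteins inactive, fell by 0.72 (SE 0.15), Evc, which works with Smo at the cilium, fell by 0.81 (SE 0.18), and Spop, Btrc, Ift172, Tulp3 and Mgrn1 fell by 0.28 to 0.50. Of 9 other target genes 8 were tested (Foxf2 was not), of which Ccne1, a G1 cyclin (2.21, SE 0.39), and Cdk6 (0.98, SE 0.26) rose, with a median of 0.06. These counts stand against 15.2% and 12% of all genes tested that rose and fell by edgeR.

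In TERT KO/KO kidneys after ADR, edgeR called Gpc3 (1.67, SE 0.43) of the 11 receptor genes, Gpr161 (1.21, SE 0.30) and Evc (-0.85, SE 0.22) of the 24 relay genes, and Ccne1 (2.31, SE 0.46) of the target genes. Their medians were -0.05, -0.07 and -0.09. These calls stand against 3.83% and 1.43% of all genes tested that rose and fell by edgeR. In i-TERTci kidneys edgeR called none of these genes, against 0.00564% of the genes fitted. An unadjusted p under 0.05 was found for 3 of the 11, 3 of the 24 and 4 of the 8 target genes tested, against 3972 of the 17745 genes fitted. The smallest p in each list was for Gpc3 (0.74, SE 0.16, adjusted p = 0.0758), Kif7 (0.86, SE 0.25, adjusted p = 0.106) and Ccne1 (1.86, SE 0.43, adjusted p = 0.0777), all by edgeR. In the genotype comparisons none was called, against 0.00526% of genes tested after saline and 0.0736% after ADR. The genes with the smallest p were Disp2 (-0.61), Kif3a (0.31) and Mycn (-0.24) after saline, and Disp2 (-0.76), Dync2h1 (0.42) and Foxf1 (-1.34) after ADR. For the difference of the ADR effects they were Hhat (0.55), Evc2 (-0.47) and Foxf1 (-1.43), with none called by edgeR. With all 13 ADR libraries in the fit, the single gene of these 3 lists that edgeR called was Ccne1 after ADR in TERT KO/KO kidneys (3.60, SE 0.73, adjusted p = 0.0385).

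Across the 6 groups, Gli2 had its highest level in i-TERTci kidneys. Its group means followed the order i-TERTci (5.54 CPM), TERT KO/KO ADR (0.970 CPM), TERT WT/WT saline (0.723 CPM), actin-rtTA+ (0.622 CPM), TERT KO/KO saline (0.591 CPM) and TERT WT/WT ADR (0.517 CPM). The libraries of TERT KO/KO ADR lay just above those of TERT WT/WT saline, and each later neighbour overlapped the next. For Gli1 the order was i-TERTci (3.92 CPM), TERT WT/WT ADR (3.59 CPM), TERT KO/KO ADR (3.10 CPM), TERT KO/KO saline (2.78 CPM), actin-rtTA+ (1.86 CPM) and TERT WT/WT saline (1.82 CPM), and every neighbour overlapped the next. Gli3 ran from 1.57 CPM in i-TERTci kidneys to 0.607 CPM in actin-rtTA+ kidneys with all neighbours overlapping. The experiments differ in strain and agent and share no mice, so differences across them cannot be told apart from those.

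The genes most like Gli2 were those with the smallest root mean square difference in centred log2 group means over the 6 groups, among 14333 genes. They were Igkv16-104, an immunoglobulin segment (0.36), Adam12, a metalloproteinase (0.38), Tent5a (0.39), Trim34a (0.39) and Gm5514 (0.40). Adam12 had mean levels of 21.0 CPM in i-TERTci kidneys and 4.64 to 6.41 CPM in the other groups. Gli1 had closer matches, which were Tmsb4x, a thymosin that binds actin (0.08), Gm10134 (0.08), Snhg5 (0.09), Prkg2 (0.10) and Tead2, a partner of Yap (0.11). These are likenesses over 6 group means and were not tested.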

How the data were processed

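RNA of 20 whole kidneys was sequenced as paired ends. The authors ran FastQC, trimmed with Trimmomatic, aligned to mm10 with STAR, and deposited raw whole-number counts per gene. The counting tool, annotation and strand setting are not given in the sources used here. Symbols, exon lengths and coordinates came from GENCODE M21. The members and lists were chosen with earlier results of these data known. Each experiment was fitted with edgeR 4.0.16 (TMM factors, filterByExpr, robust quasi-likelihood F test, Benjamini-Hochberg at 0.05), tested on simulated data, without TERT KO/KO ADR replicate 2. The 12 ADR libraries and the 7 i-TERTci libraries were fitted separately, each with 1 coefficient per group. SEs are of fitted log2 fold changes and SDs are over mice. Totals of 39323498 to 48399322 counts leave counting error largest for the genes with the fewest counts (Gli2, Gli3, Hhip, Dhh).

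All 9 members were named in every comparison. From 3 other Hedgehog lists, called genes or else the gene with the smallest p were named (1 called gene is not reported here), and the 5 genes most like Gli2 and Gli1 were taken among those with a mean of at least 1 CPM after adding 0.5 CPM. Alternatives were all 13 ADR libraries, median-ratio factors, no filter, a mean of at least 1 CPM, DESeq2 1.42.0, compared groups alone, the replicate number as a block, each library left out, and library totals for levels. The newer edgeR method was added after seeing the data.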

Additional observations from a re-analysis of the deposited data

Results flagged for a closer look

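The co-receptor gene Boc in actin-rtTA+ kidneys had 1 library far from the others. Its levels were 13.2, 17.2, 13.4 and 13.1 CPM, and the gap of replicate 2 to the nearest other library was 0.928 of the group's whole range. In all, 18 groups of 4 libraries were looked at, and chance alone takes about 1 in 20 groups past the limit used to pick out such libraries.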

How the results depend on the processing

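With all 13 ADR libraries, 0 members were called after ADR in either genotype, in place of 4 (TERT WT/WT) and 1 (TERT KO/KO), and 9 uncalled values changed sign: Ptch1 0.26, Hhip 0.36 and Gli1 -0.35 for ADR in TERT KO/KO; Ihh -0.28, Dhh -0.32, Boc -0.41 and Gli3 -0.18 for genotype after ADR; Smo -0.21 and Boc -0.53 for the difference of ADR effects. Same-numbered libraries did not deviate together in every pair (correlations of -0.504 to 0.518 over 14380 genes). Whether the numbers pair mice cannot be settled this way, because deviations from the mean of so few libraries constrain one another. With the replicate block 1 member, Smo, was called in TERT WT/WT kidneys in place of 4 (adjusted p by edgeR 0.0583 for Ptch1, 0.0524 for Hhip and 0.101 for Gli1) and Boc reversed to -0.018 for the difference. With a mean of at least 1 CPM, Boc reversed to -0.023 for the difference and Dhh to -0.000916 for genotype after ADR. Leaving out 1 library gave 0 to 5 members called in TERT WT/WT kidneys, and 0 to 1 in TERT KO/KO kidneys. It turned the sign of uncalled values, over ranges of -0.59 to 0.15 (Dhh), -0.25 to 0.053 (Ptch1), -0.60 to 0.061 (Boc) and -0.14 to 0.48 (Gli1) for ADR in TERT KO/KO, -0.10 to 0.10 (Dhh) for ADR in TERT WT/WT, -0.24 to 0.57 (Hhip) for genotype after saline, -0.40 to 0.34 (Dhh), -0.15 to 0.044 (Smo), -0.24 to 0.42 (Boc) and -0.34 to 0.42 (Gli3) for genotype after ADR, and -0.61 to 0.14 (Dhh), -0.36 to 0.31 (Boc) and -0.75 to 0.0050 (Gli3) for the difference. Of all alternatives of the members' fold changes in this experiment, 600 kept direction and call, 23 lost the call, 3 gained it and 34 changed sign. All 3 gains were of Gli3 after ADR in TERT WT/WT kidneys. The log2 fold change of Gli2 in i-TERTci kidneys was 3.12 with the replicate block and 2.97 to 3.46 with each library left out. Library totals in place of TMM factors moved 10 of 54 mean levels by over 1 SD, at 0.895 to 1.12 times. Depth limits Hhip, Gli2 and Gli3 most, which have the fewest counts. Over all genes, calls after ADR were 5164 in TERT WT/WT (894 with all 13 libraries) and 1001 in TERT KO/KO (295 with all 13 libraries, 2196 by DESeq2, 1710 with the compared groups alone). Genotype calls were 1 after saline (22 by DESeq2, 6 unfiltered, 2 with the compared groups alone, 0 with all 13 libraries or the 1 CPM filter) and 14 after ADR (138 by DESeq2, 41 unfiltered, 1 with the block, 0 with all 13 libraries or the compared groups alone). Those of the difference were 0 (138 by DESeq2, 23 unfiltered). The largest shifts came from leaving out TERT WT/WT ADR replicate 1. Calls by edgeR were then 7810 after ADR in TERT WT/WT, 782 for genotype after ADR and 325 for the difference. Without TERT WT/WT ADR replicate 2 they were 1708, 4 and 2. The number of genotype calls over all genes thus depended on 1 kidney. The causes were not tested.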
